A study of Mus musculus with 18 samples.

Results

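Wild-type-only Foxa2 sites near promoters are positions on chromosomes 1 to 19 where Foxa2 was called in the livers of wild-type mice, where no base overlapped a site called in Zmpste24 mutant livers, and whose midpoint lay within 5 kb of the start of a protein-coding gene. There were 768 such sites among the 4960 of the wild-type list and the 21560 regions of the 6 lists used. The wild-type list held 4912 sites on these chromosomes, of which 3573 were called in wild type only (72.7%). Because the sites were selected on the calls in both genotypes and on distance to a gene start, their number, the absence of a mutant call and their nearness to genes are given as descriptions.

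Foxa2 was immunoprecipitated from the livers of 12-week-old male Zmpste24 mutants and of their wild-type littermates (3 replicates per genotype, strain C57BL/6 in the labels). The genotype was taken from the sample titles, because the protocol text in the labels names wild type as the source of all the livers. The mutants lack the gene in the whole animal and not in liver alone. Lamin B1 and H3K9me3 came from other animals, male C57BL/6 mice of 3 months (young) and 21 months (old), with 2 replicates per antibody and age, so those lists describe where the sites lie in wild-type liver of 2 ages and not in the mutants. The replicates of each condition were merged before calling, and the lists hold positions without a score, so no spread between mice can be given and no test between genotypes or ages was possible. Shares are given with 95% Wilson intervals and differences of shares with 95% Newcombe intervals, which cover counting error only. Sites are not replicates of a genotype.

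Foxa2 is a winged-helix transcription factor of the forkhead family. It is called a pioneer factor because it can bind its recognition sequence in closed chromatin, and in liver it acts beside other hepatocyte regulators at genes of glucose, lipid and bile acid metabolism. Zmpste24 is the metalloprotease that matures prelamin A, and its loss gives misshapen nuclei and a disease that resembles premature ageing. Lamin B1 is a filament protein of the nuclear envelope that contacts large chromatin domains, and H3K9me3 is the histone mark of constitutive heterochromatin.

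The core of the forkhead recognition sequence was searched as TGTTTAC on both strands in the 600 bp around the midpoint of each site. A minority of the wild-type-only sites near promoters held it. The following stretches of 101 bp show the word in its surroundings at 7 of the sites, chosen among sites of liver genes or with 2 words that lie upstream of the gene start and outside annotated exons. Each reads 5′ to 3′ on the strand of the gene (sequence of GRCm38.p6, the build of the called positions), and capitals mark the word.
Kng2, chr16:23031538-23031638: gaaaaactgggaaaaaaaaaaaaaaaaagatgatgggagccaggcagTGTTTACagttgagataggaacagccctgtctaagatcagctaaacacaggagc
Lekr1, chr3:65663355-65663455: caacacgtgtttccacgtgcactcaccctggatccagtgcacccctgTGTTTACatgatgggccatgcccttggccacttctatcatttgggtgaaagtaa
Pdk4, chr6:5496590-5496690: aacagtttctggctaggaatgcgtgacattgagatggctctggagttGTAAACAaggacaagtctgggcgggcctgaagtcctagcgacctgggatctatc
Fdft1, chr14:63181040-63181140: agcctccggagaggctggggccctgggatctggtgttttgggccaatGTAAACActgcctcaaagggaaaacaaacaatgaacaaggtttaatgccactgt
Irs2, chr8:11009392-11009492: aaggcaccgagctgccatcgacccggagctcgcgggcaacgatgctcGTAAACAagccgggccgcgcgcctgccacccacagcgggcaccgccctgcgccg
Cyp2d26, chr15:82796134-82796234: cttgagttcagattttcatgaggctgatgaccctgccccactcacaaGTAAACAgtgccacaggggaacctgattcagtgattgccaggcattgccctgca
Btg1, chr10:96616514-96616614: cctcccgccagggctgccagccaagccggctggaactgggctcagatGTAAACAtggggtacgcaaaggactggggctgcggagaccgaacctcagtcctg
Pdk4, the kinase that shuts off pyruvate dehydrogenase in fasting, has its word 331 bp upstream of the gene start and 13 bp from the midpoint of a site of 334 bp. At Irs2, the adaptor of the insulin receptor in liver, the word lies 984 bp upstream and 171 bp from the midpoint, and the whole site of 1450 bp holds 2 words.

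Other sites had no such word, and 34.4% of the 768 windows were CpG-rich, which means at least 50% G and C and an observed to expected CpG ratio of at least 0.6. At one of these, that of Ncoa2, a coactivator of nuclear receptors, the 600 bp window was 68.8% G and C and held no forkhead word but 3 GC boxes (GGGCGG), the sequence that Sp1 family factors recognise at CpG island promoters.

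The sites lay close to the gene start and more often past it than before it. The median distance from the midpoint to the start was 829.5 bp (quartiles 301 and 2221 bp), 418 sites lay within 1 kb (54.4%, 50.9 to 57.9%), and 295 covered the start itself (38.4%, 35.0 to 41.9%). Upstream of the start were 315 sites (41.0%, 37.6 to 44.5%) and at or downstream of it 453. The bin with most sites was the first 500 bp of the gene, with 159, followed by the 500 bp before the start, with 132. Among the 342 wild-type sites near promoters that were also called in the mutant (shared sites), 47.4% lay within 1 kb, so that the wild-type-only share was 7.06 percentage points higher (0.695 to 13.3). Among the 787 mutant-only sites near promoters 31.8% did, a difference of 22.7 points (17.8 to 27.4). The share upstream was higher among shared sites by 6.65 points (0.337 to 12.9). The distance limit was part of the selection in all 3 classes, so only the position inside the 5 kb is compared here.

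**Figure D1:**
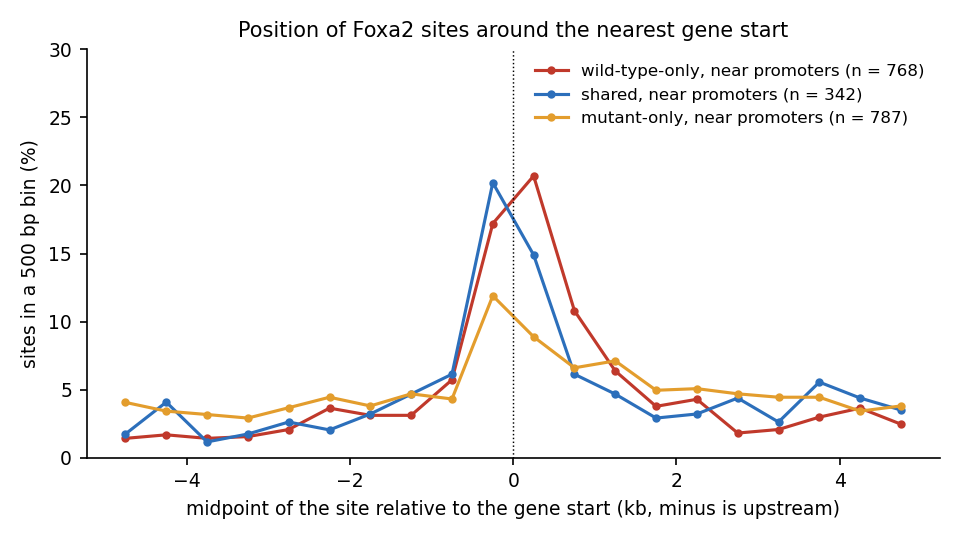
Midpoints of Foxa2 sites relative to the nearest protein-coding gene start (kb, minus is upstream), as the percent of each class in bins of 500 bp. The wild-type-only curve peaks just downstream of the start at 20.7%, the shared curve just upstream at 20.2%, and the mutant-only curve is lower at 11.9% and spread more evenly.

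By the GENCODE annotation the midpoint lay between genes at 289 sites, in an intron at 304, in an untranslated exon at 106 and in a coding exon at 69. Coding exons held 8.98% of the wild-type-only sites (7.16 to 11.2%), 4.68% of the shared ones (2.90 to 7.46%) and 3.30% of the mutant-only ones (2.26 to 4.80%). The 6 sites closest to a start were those of C2cd4c (0 bp), Tbck (2 bp upstream), Tbc1d22a (3 bp downstream), Castor2, a regulator of the mTORC1 pathway (6 bp upstream), and, at the same distance, Agbl5, a tubulin deglutamylase (7 bp upstream), and Edc3, a factor of mRNA decapping (7 bp downstream). All of these windows were CpG-rich, with 54.2 to 68.8% G and C, and 1 of the 6, that of Agbl5, held a forkhead word. Just inside the limit of 5 kb were sites at Riox2 (4989 bp), Tspan3 (4986 bp) and Fam69a (4978 bp), and just outside it those at Dbr1 (5008 bp), Dusp11 (5071 bp) and Cd4 (5073 bp).

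The wild-type-only sites were wider than the shared ones. Their median width was 1010 bp (quartiles 721.8 and 1237 bp, range 150 to 3677 bp), against 679.5 bp for shared and 909 bp for mutant-only sites near promoters. Wild-type-only distal sites, more than 5 kb from a gene start, had a median of 1029 bp. Within 1 kb of the start the medians were 1036 bp for wild-type-only and 717.5 bp for shared sites, and in CpG-rich windows 1028 and 685.5 bp. Among the widest sites were those at Ccdc7b (3677 bp), Gm14325 (2637 bp), the ribosomal protein gene Rps14 (2613 bp) and Nfrkb (2610 bp).

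The distance to the nearest called mutant site had a median of 62374 bp (quartiles 20415 and 142339 bp). A mutant site lay within 500 bp at 6 sites, within 1 kb at 20, within 5 kb at 73 (9.51%) and within 50 kb at 346 (45.1%). Of the 751 genes nearest to the sites, 8.52% had a mutant site within 5 kb and 44.1% within 50 kb. Of all gene starts 5.82% and 31.9% did, a set that includes the genes of shared and mutant-only sites, which all have one. The mutant calls were part of the selection, so these shares are descriptions. The smallest gaps were 89 bp at Gpr19, 152 bp at Rps14, 183 bp at Atf4, the transcription factor of the integrated stress response, 280 bp at Gm10277 and 413 bp at Tns2. At these 5 sites the calls of the 2 genotypes were neighbours without a shared base. The largest gap, 1931104 bp, was at Gm14325, a gene of a zinc finger cluster on chromosome 2.

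The forkhead word was less frequent at wild-type-only sites than at shared sites near promoters and close in frequency to that at mutant-only ones. It occurred in 125 of 768 windows (16.3%, 13.8 to 19.1%), against 135 of 342 shared windows (39.5%, 34.4 to 44.7%), which is 23.2 percentage points higher (17.4 to 29.0). Mutant-only sites near promoters had it in 15.9%, a difference of 0.393 points (−3.26 to 4.06), and wild-type-only distal sites in 14.9%, a difference of 1.37 points (−1.42 to 4.43). Windows of the same length centred on all gene starts had it in 5.22%, so the share at the wild-type-only sites was 11.1 points above that background (8.59 to 13.8). Of the sites, 643 had no match, 119 had 1 and 6 had 2. Those with 2 were at Akt2, a kinase of insulin signalling, Bmp8b, Btg1, an antiproliferative gene, Lekr1, Maml3, a coactivator of Notch, and Slc25a32, the mitochondrial folate carrier. The midpoints of the sites at Akt2, Bmp8b and Slc25a32 lay inside the gene, 1524 to 4624 bp downstream of the start. Those at Btg1 and Lekr1 lay 413 and 2836 bp upstream, and that at Maml3 12 bp downstream.

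The words concentrated at the middle of the wild-type-only sites. In the 200 bp on either side of the midpoint there were 0.358 and 0.345 words per kb, and in the outermost bins, 800 to 1000 bp away, 0.0911 and 0.111. Shared sites had 0.950 and 0.716 words per kb in the central bins and 0.175 and 0.190 in the outermost ones. At gene starts the word was rarer in the middle, with 0.0908 and 0.0791 per kb.

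**Figure D2:**
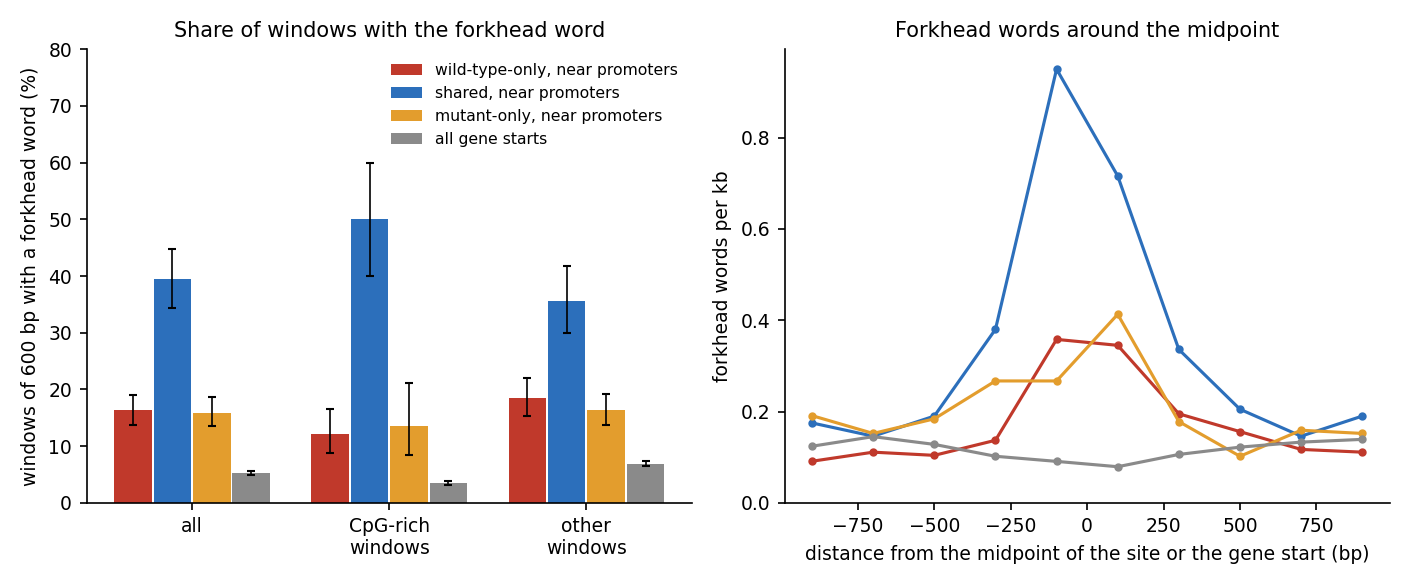
Left, percent of 600 bp windows with the forkhead word in 3 classes of Foxa2 sites near promoters and at all gene starts, for all windows and by CpG content (bars, with 95% Wilson intervals). Right, forkhead words per kb in bins of 200 bp around the midpoint or gene start; the wild-type-only curve has a central peak of 0.358 per kb, below the 0.950 of shared sites and above the 0.0908 of gene starts.

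The lower share was found in CpG-rich and in other windows and at both distances. In CpG-rich windows 12.1% of wild-type-only and 46 of 92 shared sites had the forkhead word (37.9 points higher in the latter, 26.9 to 48.5), and in the others 18.5% and 35.6% (17.1 points higher, 10.4 to 24.0). Within 1 kb of the start the shares were 13.9% and 39.5%, and from 1 to 5 kb 19.1% and 39.4%. A variant of the word, TATTTAC, was also less frequent, with 9.64% of wild-type-only and 20.5% of shared windows (10.8 points higher in the latter, 6.28 to 15.8). It was in 14.0% of mutant-only windows, 4.34 points higher than at wild-type-only sites (1.13 to 7.55). Without windows that lie mostly in repeats the forkhead shares were 16.6% and 41.7%.

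Words of other factors differed less from the shared sites. In all, 12 words or pairs of words were counted on both strands, each on its own, so that they may overlap in a sequence. The GATA word (AGATAA) was in 20.8% of wild-type-only and 19.6% of shared windows, a word for C/EBP factors (TTGCNNAA) in 22.5% and 26.0%, a part of the HNF1 site (GTTAAT) in 14.3% and 15.8%, and the Sox words (CCATTGT and CCTTTGT) in 16.7% and 18.1%. The words of HNF6 (ATCGAT), ETS factors (CCGGAA), the E-box (CACGTG), the TATA box (TATAAA) and the box spelled CCAAT were in 2.34%, 20.7%, 12.4%, 20.6% and 53.8% of wild-type-only windows and in 2.34%, 20.8%, 14.3%, 23.1% and 58.2% of shared ones. For each of these 9 the interval of the difference from shared sites included 0, which does not show that the shares were alike. The GC box was in 42.2% of wild-type-only and 36.0% of shared windows, a difference of 6.22 points (−0.0287 to 12.3). Against mutant-only sites the wild-type-only windows had more GC boxes (18.7 points, 14.1 to 23.2), ETS words (8.38 points, 4.70 to 12.1) and E-boxes (3.22 points, 0.137 to 6.33), while mutant-only windows had more TATA boxes (14.2 points, 9.82 to 18.6), GATA words (5.98 points, 1.74 to 10.2) and C/EBP words (5.30 points, 0.984 to 9.59). At all gene starts the shares were 17.6% for GATA, 17.7% for C/EBP, 11.1% for HNF1, 14.3% for Sox, 1.75% for HNF6, 27.2% for ETS, 11.9% for the E-box, 19.4% for the TATA box, 53.4% for the CCAAT box, 55.8% for the GC box and 4.87% for the forkhead variant.

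Base composition moved with these words. The median G and C content was 52.0% at wild-type-only sites near promoters, 49.6% at shared, 46.2% at mutant-only and 44.8% at wild-type-only distal sites, and 57.0% at gene starts. CpG-rich were 264 of the 768 windows (34.4%, 31.1 to 37.8%), against 26.9% of shared windows (7.47 points higher, 1.55 to 13.1) and 14.1% of mutant-only ones (20.3 points higher, 16.1 to 24.4). Within 1 kb of the start 56.5% of wild-type-only, 48.8% of shared and 40.0% of mutant-only windows were CpG-rich, which is a difference of 7.69 points from shared (−1.32 to 16.6) and of 16.5 points from mutant-only sites (8.64 to 24.0). Position and CpG content thus moved together, and the part of base composition in the other differences from mutant-only sites was not tested. Genes with a second protein-coding start on the other strand within 1 kb upstream made up 5.86% of the 751 genes (4.39 to 7.77%) and 6.97% of all genes.

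The sites lay in lamin B1 domains more often than gene starts did, and at shares close to those of shared sites. In young livers 387 of the 768 midpoints were in a lamin B1 domain (50.4%, 46.9 to 53.9%), against 47.4% of shared sites near promoters, 43.5% of mutant-only ones, 30.6% of wild-type-only distal sites and 38.0% of all gene starts. In old livers 587 were (76.4%, 73.3 to 79.3%), against 79.2%, 70.1%, 57.7% and 65.7%. The difference from shared sites was 3.02 points in young (−3.34 to 9.33) and −2.81 points in old livers (−7.86 to 2.62), and that from gene starts was 12.4 points (8.81 to 16.0) and 10.8 points (7.57 to 13.7). From young to old the share was larger by 26.0 points at the sites and by 27.7 points at gene starts, so the called domains held more of both in old livers. The authors list more lamin B1 reads for young than for old livers, and the part of depth in this difference was not tested. Of the sites, 338 were in a domain at both ages (44.0%), against 44.2% of shared sites and 33.5% of gene starts. At neither age were 132 (17.2%), against 17.5% and 29.8%. In old livers only were 249 (32.4%), a share near the 32.2% of gene starts, 35.1% of shared and 33.3% of mutant-only sites. In young livers only were 49. The share in young livers only was 6.38% (4.86 to 8.34%), against 3.22% of shared, 6.61% of mutant-only and 5.78% of wild-type-only distal sites and 4.49% of gene starts.

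The difference from gene starts was at sites that were not CpG-rich. In CpG-rich windows 132 of 264 sites and 49.7% of gene starts were in a young domain (difference 0.308 points, −5.76 to 6.37), and 78.4% and 79.0% in an old one. In the other windows 50.6% of the sites and 27.0% of gene starts were in a young domain (23.6 points, 19.1 to 28.0), and 75.4% and 53.2% in an old one (22.2 points, 18.2 to 25.9). Shared sites in such windows gave 45.6% in young and 76.8% in old livers. A window at a gene start and a site up to 5 kb away can differ in CpG content at the same gene, so these 2 sets do not hold the same kind of genes.

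H3K9me3 was less frequent than lamin B1 at the sites. In young livers 89 midpoints were in an H3K9me3 region (11.6%, 9.51 to 14.0%), against 14.0% of shared sites near promoters, 23.0% of wild-type-only distal sites and 13.6% of gene starts. In old livers 147 were (19.1%, 16.5 to 22.1%), against 15.8%, 26.8% and 25.7%. The share of gene starts was 6.53 points higher in old livers (3.54 to 9.23) and 2.06 points higher in young ones (−0.444 to 4.18). Marked in old but not in young livers were 97 sites (12.6%, 10.5 to 15.2%), against 7.31% of shared sites, a difference of 5.32 points (1.41 to 8.75), and 12.8% of mutant-only sites. Both marks together covered 43 sites in young livers (5.60%), against 9.06% of shared and 5.34% of mutant-only sites and 4.83% of gene starts. In old livers they covered 131 (17.1%), against 14.9% of shared and 17.9% of mutant-only sites and 22.0% of gene starts. The authors list more H3K9me3 reads for old than for young livers, and the part of depth in the age differences was not tested.

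**Figure D3:**
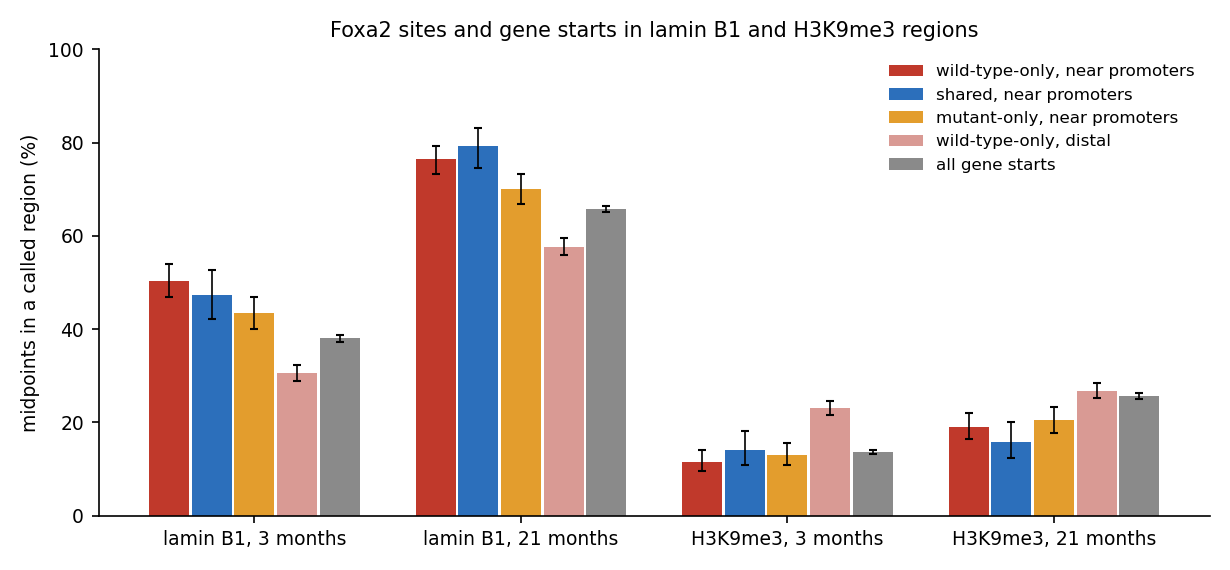
Percent of midpoints in a called lamin B1 domain or H3K9me3 region of livers at 3 and 21 months, for 4 classes of Foxa2 sites and for all protein-coding gene starts (bars, with 95% Wilson intervals). Wild-type-only sites near promoters stand at 50.4% and 76.4% for lamin B1 and at 11.6% and 19.1% for H3K9me3, beside 38.0%, 65.7%, 13.6% and 25.7% of gene starts.

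The 768 sites were nearest to 751 genes, which is 3.61% of the 20807 protein-coding genes of chromosomes 1 to 19. Shared sites near promoters were nearest to 325 genes (1.56%) and mutant-only ones to 772 (3.71%). In all, 37 genes had both a wild-type-only and a mutant-only site (4.93% of the former and 4.79% of the latter genes), and 24 had a wild-type-only and a shared site (3.20% of the wild-type-only and 7.38% of the shared genes). By chromosome, the sites per 100 genes ranged from 1.23 on chromosome 17 to 5.88 on chromosome 3.

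Genes of hepatocyte function were more frequent than genes overall in each of the 3 classes. Of the 379 autosomal genes on 10 lists of liver functions, 46 were nearest to a wild-type-only site (12.1%, 9.22 to 15.8%), 41 to a shared site (10.8%) and 44 to a mutant-only site (11.6%). Of all genes 3.61%, 1.56% and 3.71% were, so the background of shared sites was the lowest. The same backgrounds hold for the single lists below. Whether the classes differ in their excess of liver genes was not tested. Of 25 marker genes of Kupffer, endothelial, stellate, bile duct and lymphoid cells, 0 were nearest to a wild-type-only site. The 25 genes are too few to set that count against the background of 3.61%. Cytosolic ribosomal protein genes stood at 3.66% (3 of 82), mitochondrial ones at 2.56% (2 of 78), proteasome genes at 0 of 39, and olfactory and vomeronasal receptor genes at 0.283% (4 of 1412), where mutant-only sites gave 1.70% (24 of 1412). The 47 sites at liver genes included 29 upstream of the start, 18 within 1 kb, 7 with a forkhead word and 7 in CpG-rich windows, where the shares over all 768 sites were 41.0%, 54.4%, 16.3% and 34.4%. No test was made of these counts against the other sites. Of the 46 genes, 5 also had a mutant-only site and 1 a shared site, where 4.93% and 3.20% of all 751 genes did. At the other 40 no shared or mutant-only site was nearest within 5 kb, which does not set them apart from the 751.

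**Figure D4:**
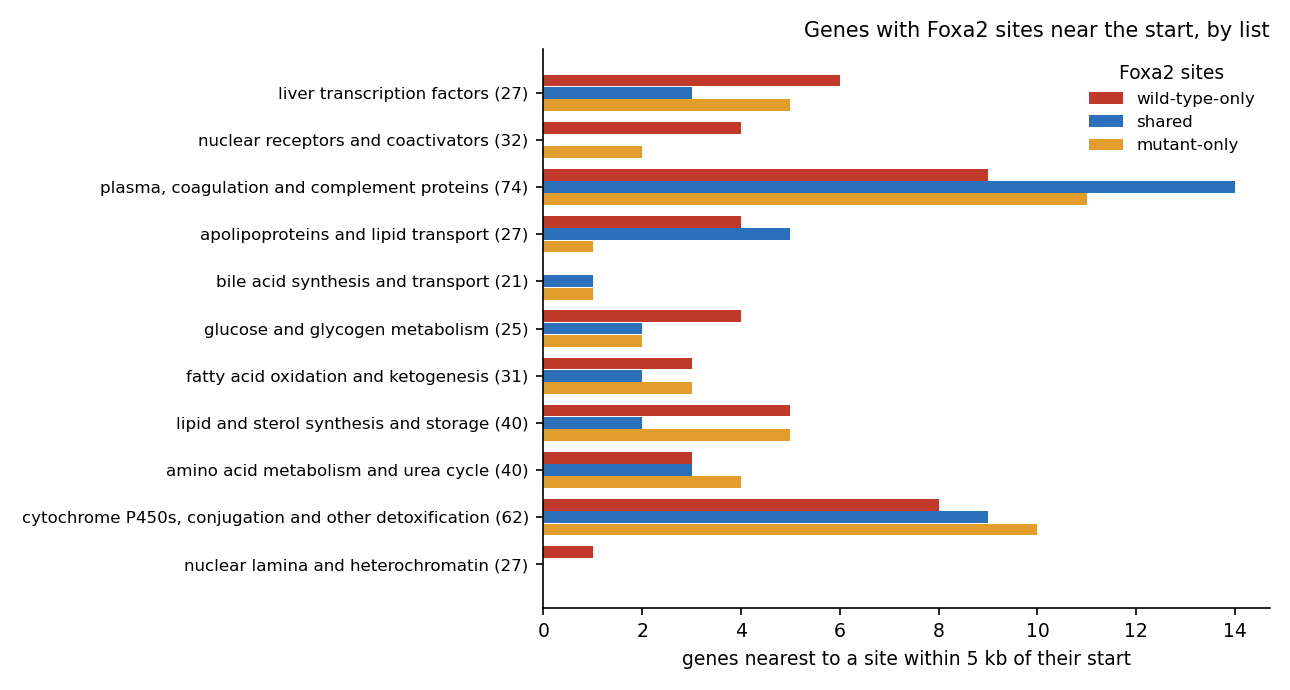
Number of genes on each list (genes on chromosomes 1 to 19 in parentheses) that are nearest to a wild-type-only, shared or mutant-only Foxa2 site within 5 kb of their start. Wild-type-only sites reached 6 of 27 liver transcription factors and 4 of 32 nuclear receptors and coactivators, and plasma proteins had more shared (14) than wild-type-only (9) genes.

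Genes of liver regulators were among those with a wild-type-only site. Of 27 liver transcription factor genes, 6 were nearest to a wild-type-only site (22.2%, 10.6 to 40.8%, an interval that includes the 12.1% of the 10 liver lists together), 3 to a shared and 5 to a mutant-only site. The 6 were Foxa1, the forkhead paralog that shares many targets with Foxa2, Cebpa, which drives hepatocyte differentiation and metabolism, the cut-homeodomain factors Onecut1 (HNF6) and Onecut2, Gata6, and Bcl6, a repressor with sex-biased expression in liver. The Foxa1 site (chr12:57542779-57544019) lay in an intron 3517 bp downstream of the start, with the nearest mutant site 7323 bp away. The Cebpa site (chr7:35119008-35120671) was 1664 bp wide and covered the coding exon 547 bp past the start, in sequence with 75.0% G and C. Foxa1, Cebpa, Gata6, Onecut1 and Onecut2 lay in lamin B1 domains at both ages, and Bcl6 at neither. Over all 768 sites 44.0% and 17.2% were in these states, and 6 sites are too few to compare with them. None of these 6 windows had the forkhead word, which 16.3% of all the sites had, so a count of 0 of 6 is no result about these genes. The Foxa2 gene itself had a shared site, 136 bp from its start. Among 32 nuclear receptor and coactivator genes, 4 had a wild-type-only site, among them Nr0b2 (SHP, the corepressor induced by bile acids), Nr2f6 and Ncoa2, 0 had a shared and 2 had a mutant-only site, one of which was Nr1h4 (the bile acid receptor FXR). The 4 wild-type-only sites lay within 1 kb upstream of the start, and all were in a lamin B1 domain in old livers. Over all 768 sites 76.4% were in such a domain, so 4 of 4 is no result about these genes. In the 500 bp before the start lay 17.2% of all the sites, and 500 to 1000 bp before it 5.73%. The 4 sites are too few to compare their positions with these shares.

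Plasma protein genes had more shared than wild-type-only sites. Of 74, 9 were nearest to a wild-type-only site (12.2%), 14 to a shared and 11 to a mutant-only site. The 9 were the clotting factors F7 and Fgg (fibrinogen gamma chain), the anticoagulant Proc (protein C), the serpins Serpina1e, Serpina3k, Serpina6 (corticosteroid-binding globulin) and Serpinf2 (antiplasmin), the kininogen Kng2, and Itih2. The fibrinogen locus on chromosome 3 held all 3 classes. Fgg had 2 wild-type-only sites 2104 and 4620 bp upstream of its start (chr3:83004944-83006295 and chr3:83002684-83003523), Fga had a mutant-only site 155 bp upstream, and Fgb had 3 shared sites between 109 and 2553 bp upstream. Neither Fgg site had a forkhead word in its central window, and both lay outside lamin B1 and H3K9me3 regions at each age. At Serpina6 the wild-type-only site 193 bp upstream of the start held a forkhead word, and a shared site lay 2144 bp upstream. At Kng2 the wild-type-only site printed above was 2060 bp upstream, and a mutant-only site lay 306 bp downstream of the start.

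Genes of lipid, sugar and energy metabolism made up a further part. Wild-type-only sites were nearest to 14.8% of the lipid transport, 12.5% of the lipid synthesis, 16.0% of the glucose and 9.68% of the fatty acid oxidation genes. Each interval included the 12.1% of the 10 liver lists together. Of all genes 3.61% were nearest to a wild-type-only, 1.56% to a shared and 3.71% to a mutant-only site. Counts of different classes thus have different backgrounds. Among 27 genes of lipoproteins and lipid transport, 4 had a wild-type-only site, 5 a shared and 1 a mutant-only site. The 4 included Apob, the structural protein of very low density lipoprotein, Apoc4 and Lpl, the lipase of circulating triglycerides. The Apob site (chr12:7977464-7977976) was centred 72 bp past the start in the first exon, and the gap to the mutant-only site of the same gene was 507 bp. Among 40 genes of lipid and sterol synthesis, 5 had a wild-type-only, 2 a shared and 5 a mutant-only site. Fasn, fatty acid synthase, had its site 62 bp past the start in a window with 73.8% G and C. Fads2 (a desaturase), Elovl3 (an elongase) and Fdft1 (squalene synthase) had theirs 3142 bp upstream, 3965 bp downstream and 1585 bp upstream. Of 25 glucose and glycogen genes, 4 had a wild-type-only site, which were Irs2, Khk (ketohexokinase, the first enzyme of fructose breakdown), Gys2 (liver glycogen synthase) and Ppp1r3c (a glycogen-targeting phosphatase subunit), and Pck1 had a shared site instead. Of 31 fatty acid oxidation genes, 3 had one, namely Acadm (medium-chain acyl-CoA dehydrogenase), Crat and Pdk4. Cpt1a and Ehhadh had shared sites and Acsl1, Cyp4a10 and Hadh mutant-only ones.

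At Irs2 the wild-type-only site was 875 bp away from a mutant-only site whose midpoint lay 3065 bp upstream of the start. Cyp2d26 and Ugt2b36 likewise had a wild-type-only and a mutant-only site, with gaps of 1399 and 1952 bp. With Apob and Kng2 these were the 5 genes of the liver lists with both classes. The 62 genes of cytochrome P450s, conjugation and other detoxification had 8 with a wild-type-only site (12.9%), 9 with a shared and 10 with a mutant-only site. Beside the pair just named the 8 included Cyp3a11, the main drug-metabolising P450 of mouse liver, Ces2a, Adh4, Aldh8a1 and Sult1a1. Amino acid metabolism had 3 of 40, the urea cycle enzyme Arg1 (67 bp past the start), Cth and Gpt. Bile acid synthesis and transport had 0 of 21 (0 to 15.5%), with 1 shared (Slc27a5) and 1 mutant-only gene (Cyp27a1). That interval includes the 3.61% of all genes, so the 0 is no result about this list. Of 27 genes of the nuclear lamina and heterochromatin, 1 had a site (3.70%), a share near the 3.61% of all genes. It was Sun2, a protein of the inner nuclear membrane that links this membrane to the cytoskeleton. The site lay in an intron 1246 bp past the start, inside lamin B1 domains at both ages.

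The lamin B1 state of the 47 sites at liver genes varied within each function. At 14 the midpoint lay in a domain at both ages, at 19 in old livers only, at 1 in young livers only and at 13 at neither age, where the 768 sites together had 44.0%, 32.4%, 6.38% and 17.2% in these states. The site in young livers only was that of Cth (cystathionine gamma-lyase), 1410 bp upstream of the start. Those in old livers only included the sites of Apoc4, Lpl, Arg1, Gpt, Acadm, F7, Itih2, Serpina1e, Serpina3k, Serpinf2, Fads2, Fasn, Fdft1, Gys2, Irs2, Ncoa2, Nr2f6 and Cyp2d26. H3K9me3 was called at 6 of the 47 sites at 3 months and at 5 at 21 months, while 11.6% and 19.1% of all 768 had it. Of these, Lpl, Elovl3 and Cyp2d26 were marked at both ages, Onecut1 and Serpina3k in young livers only, and Crat and Fasn in old livers only.

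No gene was nearest to more than 2 of the sites, and 17 genes had 2, which were looked at after their values were seen. They included Fgg, Proz (the clotting cofactor protein Z), Igfbp4 (a binding protein of insulin-like growth factors), and Shmt1 (a folate enzyme) among genes with known roles in liver or plasma, and Mef2d, a MADS-box transcription factor, and Nsd3, a histone methyltransferase, among regulators. At Shmt1 both sites, 1152 and 3199 bp past the start, held a forkhead word. At 12 of the 17 genes, Dhx36 and Mkln1 among them, the 2 sites lay on either side of the start.

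Where a site stood in the wild-type list went with whether it was called in the mutant. The sources used here do not say what the rows are ordered by, and the list was divided into 4 blocks of 1240 rows. Of the wild-type sites near promoters in the first block, 133 of 334 were called in wild type only (39.8%), and in the following blocks 74.7%, 83.5% and 88.6% were. Distal sites gave 33.4%, 76.9%, 89.1% and 92.1%. Over the whole list 69.2% of the sites near promoters (768 of 1110) and 73.8% of the distal ones were called in wild type only. Both values were used to choose the sites, so these shares are descriptions. The width also went with the row, with a median of 1178 bp in the first and 863 bp in the last block for the wild-type-only sites near promoters. Within each block the forkhead word was less frequent at wild-type-only than at shared sites. The shares were 23.3% and 45.3% in the first block (22.0 points higher at shared sites, 11.6 to 31.4) and 15.2% and 32.1% in the last (16.9 points higher, 1.74 to 35.9), where only 28 shared sites remained. Wild-type-only sites were also the wider ones in each block, with medians of 1178, 1050, 990.5 and 863 bp against 695, 729, 564.5 and 598 bp. The CpG-rich shares were 42.9%, 40.7%, 27.7% and 29.0% at wild-type-only and 30.3%, 24.7%, 27.5% and 7.14% at shared sites, so that those of the third block were nearly equal. Shares in young lamin B1 domains ranged over the blocks from 49.6 to 51.4% at wild-type-only and from 28.6 to 55.0% at shared sites, lower at wild-type-only sites in 2 blocks and higher in 2. No interval was computed for these differences within blocks.

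**Figure D5:**
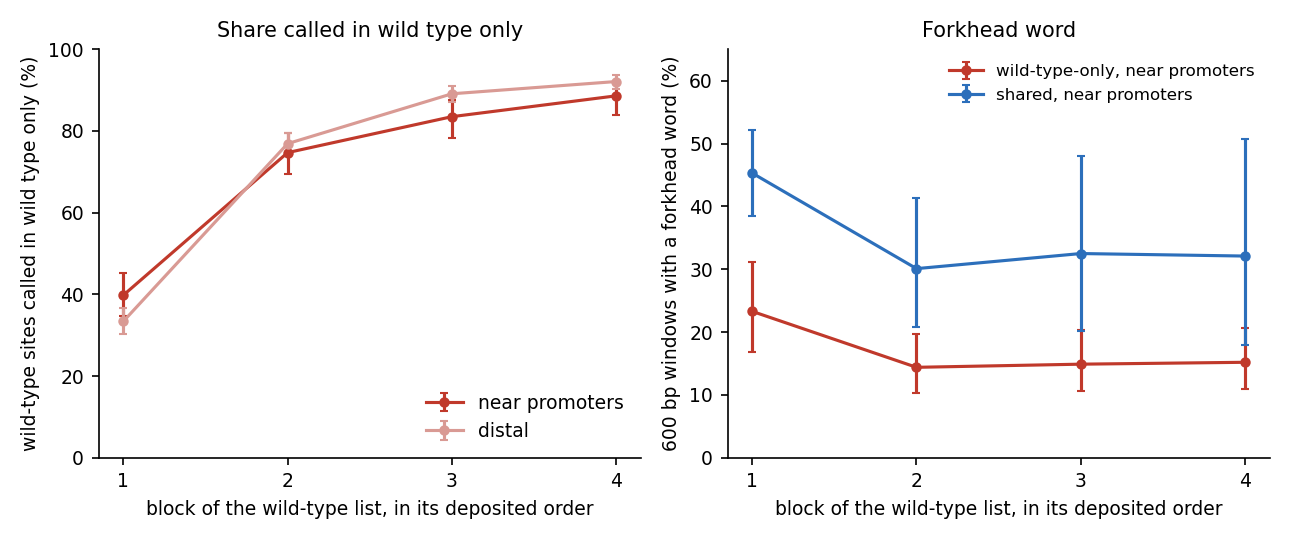
Left, percent of wild-type Foxa2 sites called in wild type only, by block of 1240 rows of the list in its deposited order, near promoters and distal. Right, percent of 600 bp windows with the forkhead word at wild-type-only and shared sites near promoters in the same blocks; points with 95% Wilson intervals, at 39.8 to 88.6% on the left for promoters and at 23.3% and 45.3% in the first block on the right.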

How the data were processed

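Foxa2, lamin B1 and H3K9me3 ChIP-Seq of mouse liver was used as 6 lists of called regions. Per the labels and the methods, the authors used BWA to align to mm10 and Picard to discard duplicates, and pooled the uniquely placed reads of all replicates. They ran PeakSeq against input for Foxa2, on mutant reads thinned to as many as in wild type, and Epic, an implementation of SICER, in windows of 10 kb for lamin B1. The input was chromatin of young and old wild-type livers mixed together, taken from an earlier study. Together the lamin B1 and H3K9me3 lists used here hold fewer regions than the paper reports for them. Not every list can thus hold the calls that the paper describes. The caller of the H3K9me3 regions is not given in the sources used here. The deposited values are positions, with no count, signal or score, so the depth behind a single site is unknown. Each list was matched to its condition by name. H3K9me2 was not analysed here.

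A site counted as shared if 1 bp or more lay in a site of the other genotype. Gene starts were the gene-level starts of 20807 protein-coding genes on chromosomes 1 to 19 (GENCODE vM21), and each site was given to the nearest one. Positions are 1-based on GRCm38. Words and base composition were counted in the 600 bp around the midpoint, and a site was in a region if its midpoint was. Intervals are Wilson and Newcombe at 95%, and no test was run because the replicates were merged before calling and only positions were available. The overlap, distance, word and interval code was tested on simulated data. The members, lists and alternatives were chosen with earlier results of these data known. Named are genes of the lists nearest to a site, the 5 sites closest to a start (6 with a tie), the 5 widest, the 5 nearest to a mutant site, those with at least 2 forkhead words, those at the 5 kb limit, and those of the lists in lamin B1 domains at one age only. Some genes and sequences that these rules select are not reported here. The computations used Python 3.11.15, numpy 2.4.6, pandas 2.3.3, scipy 1.17.1, pysam 0.24.0 and matplotlib 3.10.9.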

Additional observations from a re-analysis of the deposited data

How the results depend on the processing

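Leaving out a replicate or setting a stricter score was not possible with merged lists of positions. No paired analysis was possible because the replicates of each condition were merged into 1 list before calling. Of 51 alternative values, 39 stayed within the counting error (for shares), the spread of the median (for distances and widths) or 1.5 times (for counts), and 12 did not. With the midpoint within 1 kb the number of sites was 418, of genes 417 and of liver list genes 18, the median width was 1036 bp, and 56.5% of windows were CpG-rich. The share with the forkhead word was 10.2% in the central 300 bp, 21.4% in 1000 bp, 21.6% in the whole site and 23.8% with TATTTAC added, while the difference from shared sites remained between 16.7 and 24.0 points over the 3 windows and the whole site. In the first 2480 rows of the wild-type list, an alternative added after seeing the data together with those for the distances, the median distance to the start was 643 bp, the median width 1094 bp and the CpG-rich share 41.5%. Counting mutant sites up to 500 bp away as shared left 762 sites, and a reciprocal overlap of at least 50% gave 879. A site not called in the mutant is not shown to be unbound there, since the lists hold no signal below the calling threshold.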
